A study of Mus musculus with 8 samples.

Results

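Neurofilaments and peripherin are the neuronal members of the intermediate filament family, and their transcripts were followed across the neuronal subtypes of the mouse stellate ganglion. The 5 genes are Nefl, Nefm and Nefh, which encode the light, medium and heavy neurofilament subunits, Ina, which encodes alpha-internexin, and Prph, which encodes peripherin. They were taken by name, and all 5 were found among the 19224 genes of the expression matrix. The stellate ganglia were those of 8 adult male C57BL/6J mice aged 8 to 10 weeks, of 1 condition. Every mouse had received an adeno-associated virus with GFP in the heart and one with tdTomato in the front paws, so no uninjected group was compared. Left and right ganglia were combined before dissociation, single cells were captured with the 10x Genomics system, and each transcript was counted by its unique molecular identifier (UMI). The 1303 neurons carry 8 subtype names given by the authors: NA1a, NA1b, NA1c, NA2 and NA3 (noradrenergic), Ach1 and Ach2 (cholinergic) and Glut.

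Neurofilaments are long rope-like polymers that fill the axon and are known to set its diameter. The light subunit forms the core, and the medium and heavy subunits add long carboxy-terminal tails that protrude from the filament and are heavily phosphorylated. Alpha-internexin co-assembles with this triplet in many neurons, and peripherin is a related protein that is typical of peripheral and autonomic neurons. All of these proteins are made in the cell body and carried down the axon by slow axonal transport. The authors used Prph itself, with Snap25, Syt1 and Pcsk1n, to recognise neurons, so its presence in every subtype is part of how the cells were chosen and is not a finding. The subtypes were likewise clustered from the same expression values, so that the tests between subtypes below describe how far the named clusters lie apart in each mouse and are not independent of the clustering.

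The 5 genes lie on 4 chromosomes of the mouse genome build GRCm38 in the GENCODE vM21 annotation. Nefl and Nefm are neighbours on chromosome 14, at chr14:68083863-68089095 on the plus strand and chr14:68082590-68124846 on the minus strand. The principal Nefm transcript has 3 exons and 848 codons, and it starts and ends outside Nefl. A second annotated Nefm transcript reaches back over Nefl on the opposite strand, and its exons overlap those of Nefl over 1108 bases. The principal transcript of Nefl has 4 exons and 543 codons. Nefh, at chr11:4938754-4948064 on the minus strand, has 4 exons and encodes the longest of the 5 proteins with 1090 codons. Ina, at chr19:47014698-47025327 on the plus strand, has 3 exons and 501 codons, while Prph, at chr15:99055174-99058978 on the plus strand, has 8 exons and 507 codons in its principal transcript and 4 annotated transcripts in all. The gene table holds 1 value per gene, so the transcripts of Prph were not told apart.

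Promoter windows of 250 bases before to 50 bases after the transcription start were taken from RefSeq (GRCm38.p6) for Prph, the gene by which the neurons were recognised, and Ina. Windows were at hand for no other member, so the choice does not rest on levels. The capitals mark TATAAA and GGGCGG on either strand.
Prph, chr15:99054924-99055223, plus strand: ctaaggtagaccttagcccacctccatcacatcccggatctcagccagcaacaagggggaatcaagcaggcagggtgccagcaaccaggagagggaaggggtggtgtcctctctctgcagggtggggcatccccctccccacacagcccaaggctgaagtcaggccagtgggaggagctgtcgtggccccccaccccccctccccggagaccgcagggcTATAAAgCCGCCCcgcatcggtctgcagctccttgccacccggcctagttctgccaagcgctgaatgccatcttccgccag
Ina, chr19:47014431-47014730, plus strand: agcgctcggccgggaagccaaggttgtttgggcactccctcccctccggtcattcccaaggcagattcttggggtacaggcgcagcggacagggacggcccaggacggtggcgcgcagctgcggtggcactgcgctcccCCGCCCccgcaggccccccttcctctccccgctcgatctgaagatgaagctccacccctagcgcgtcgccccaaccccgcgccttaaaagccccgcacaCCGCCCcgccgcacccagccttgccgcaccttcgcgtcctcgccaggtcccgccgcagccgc

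The Prph window holds 1 TATAAA, which starts 31 bases before the transcription start and is found in 13.6% of the 32851 promoter windows, and the Ina window holds none. GGGCGG, found in 35.7% of the windows, occurs 1 time in Prph and 2 times in Ina, in each case on the minus strand. TGACG (20.8% of windows) occurs in neither, and CANNTG (72.3% of windows) occurs 1 time in Ina. Both windows are rich in G and C, at 64.7% for Prph and 71.7% for Ina, against a median of 52.7% over all windows. These matches describe the letters only.

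Of the 8 mouse names in the data, 5 matched 1 sample each, and these 5 mice with 1002 neurons are the replicates of every value over mice. The other 301 neurons enter pooled values only. The neurons of each of the 5 mice held 916296 to 1196621 UMIs in total. Median depth ranged from 2162 UMIs per neuron in Ach1 to 8181.5 in NA1a, and was 2341.5 in NA2. Levels are given as the mean over neurons of UMIs per 10000 UMIs of the neuron, for each mouse and subtype with at least 10 neurons. NA1a, NA1b, NA1c and NA2 reached this in 5 mice, NA3 in 3 mice, Ach2 in 2, Ach1 in 1 and Glut in none. A total of 21 cell barcodes occurred under more than 1 mouse name, in 73 neurons, of which 55 were NA2, 15 Ach2 and 3 Glut. They made up 36.7% of the NA2 and 32.6% of the Ach2 neurons of the 5 mice. Of these barcodes, 20 carried the same subtype name in every mouse that held them. Neurons with the same barcode and subtype correlated at a median of 0.489 over genes between mice, against 0.456 for neurons of different barcodes from the same set. Levels, fitted differences and shares of NA2 and Ach2 are therefore given with and without these neurons for the results that turn on them, and without them NA2 keeps 4 mice.

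All 8 sympathetic markers examined, among them Dbh and Th of noradrenaline synthesis, had a UMI in some neuron of every subtype. The paper names Dbh, Th, Snap25, Syt1 and Pcsk1n of this list as genes by which the neurons were separated out. Their detection is therefore part of how the cells were chosen and is not a finding. Their summed level was 107 to 153 UMIs per 10000 in the mice of NA1a, NA1b, NA1c and NA2, and 56.9 to 61.3 in NA3. The 10 satellite glia markers summed to 191 to 349 in the 3 mice of NA3 against 3.19 to 24.4 in NA1a, NA1b, NA1c and NA2, where Kcnj10 was at 0 in NA2 and every other marker was detected. Ach1 held 119 in its 1 mouse, together with 37.4 of the 5 fibroblast, 9.40 of the 5 Schwann cell and 5.64 of the 5 immune markers. In NA3 the 5 Schwann cell markers summed to 9.99 to 14.8 and the 5 fibroblast markers to 10.1 to 29.7, both above the 0.522 to 3.61 of NA1a, NA1b, NA1c and NA2. The 5 endothelial, 5 immune and 5 smooth muscle markers each summed to no more than 2.52 in NA1a, NA1b, NA1c, NA2 and NA3. The part of this RNA in the NA3 and Ach1 values below was not tested. Since only neurons were used here, no background level of free RNA could be set for the 5 genes.

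Nefl, the core subunit, was highest in NA2 among the 5 subtypes with at least 3 mice. In NA2 it reached 9.57, 6.71, 6.17, 11.2 and 9.85 UMIs per 10000 in replicates 1 to 5, a mean of 8.70 ± 2.16 (SD, n = 5). In NA1a it was 2.92, 2.49, 2.31, 2.98 and 3.89 in the same mice, a mean of 2.92 ± 0.616 (SD, n = 5). The lowest NA2 mouse lay above the highest value of any mouse in NA1a, NA1b, NA1c and NA3. NA1b at 3.35 ± 0.574 and NA1c at 3.46 ± 1.16 (SD, n = 5 each) overlapped with NA1a, and NA3 was lowest at 3.07, 2.16 and 1.28 in replicates 2, 4 and 5. Without the shared barcodes the 4 NA2 mice held 10.6, 5.17, 11.7 and 10.1, again above every mouse of NA1a, NA1b, NA1c and NA3.

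Nefm, the medium subunit, was the member that varied within the NA1 group in the 5 matched mice. In NA1a it was 1.87, 1.54, 1.26, 1.52 and 2.26 UMIs per 10000 in replicates 1 to 5, and in NA1c 3.19, 5.21, 2.98, 3.07 and 4.08. The mice of NA1a and NA1c did not overlap, with means of 1.69 ± 0.384 and 3.71 ± 0.951 (SD, n = 5 each). NA1b spread over both, from 1.02 to 4.74. Pooled over the neurons of the unmatched mice, Nefm was no higher in NA1c than in NA1a. It was at 1.94 in NA1a (134 neurons), 1.76 in NA1b (74 neurons) and 1.84 in NA1c (23 neurons). NA2 at 4.25 ± 1.50 (SD, n = 5), or 4.92 ± 1.76 without the shared barcodes (n = 4), overlapped with NA1c, and NA3 was at 1.68 ± 0.480 (SD, n = 3).

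Nefh, the heavy subunit, was sparse, with a mean of less than 2 UMIs per 10000 in each of these 5 subtypes. NA2 held 1.39, 0.626, 2.20, 1.85 and 1.77 in replicates 1 to 5, a mean of 1.57 ± 0.599 (SD, n = 5). NA1a held 0.292, 0.496, 0.313, 0.553 and 0.824, so that replicate 2 of NA2 lay within the range of NA1a. The other means were 0.973 ± 0.334 in NA1b, 0.833 ± 0.348 in NA1c (SD, n = 5 each) and 0.672 ± 0.578 in NA3 (SD, n = 3). With all neurons these groups overlapped with one another. Leaving the shared barcodes out removes replicate 2 of NA2, and the 4 remaining mice, at 0.889 to 2.81, all lay above the highest mouse of NA1a at 0.824.

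Ina, the alpha-internexin gene, ran from 2.40 to 3.43 UMIs per 10000 in the 5 NA2 mice, with a mean of 2.80 ± 0.409 (SD, n = 5). NA1a ran from 1.16 to 1.80 and NA1b from 0.822 to 1.72, both below every NA2 mouse, and the 4 NA2 mice left without the shared barcodes held 2.70 to 3.49. NA1c was broad, at 2.84, 2.49, 2.16, 0.834 and 1.50 in replicates 1 to 5, and overlapped with NA2. NA3 held 1.16, 0.605 and 1.27 in its 3 mice.

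In the 5 matched mice, Prph was nearly flat over the 3 NA1 subtypes and moved apart in NA2 and NA3. NA1a, NA1b and NA1c had means of 19.9 ± 0.961, 19.9 ± 2.77 and 20.7 ± 1.23 UMIs per 10000 (SD, n = 5 each). NA2 held 38.0, 30.4, 37.7, 31.6 and 27.6 in replicates 1 to 5, above every NA1 mouse. NA3 held 12.2, 15.0 and 9.74 in replicates 2, 4 and 5, below every NA1 mouse. With those barcodes left out the NA2 values were 33.9, 34.7, 30.8 and 26.4, and the groups still did not overlap.

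**Figure D1:**
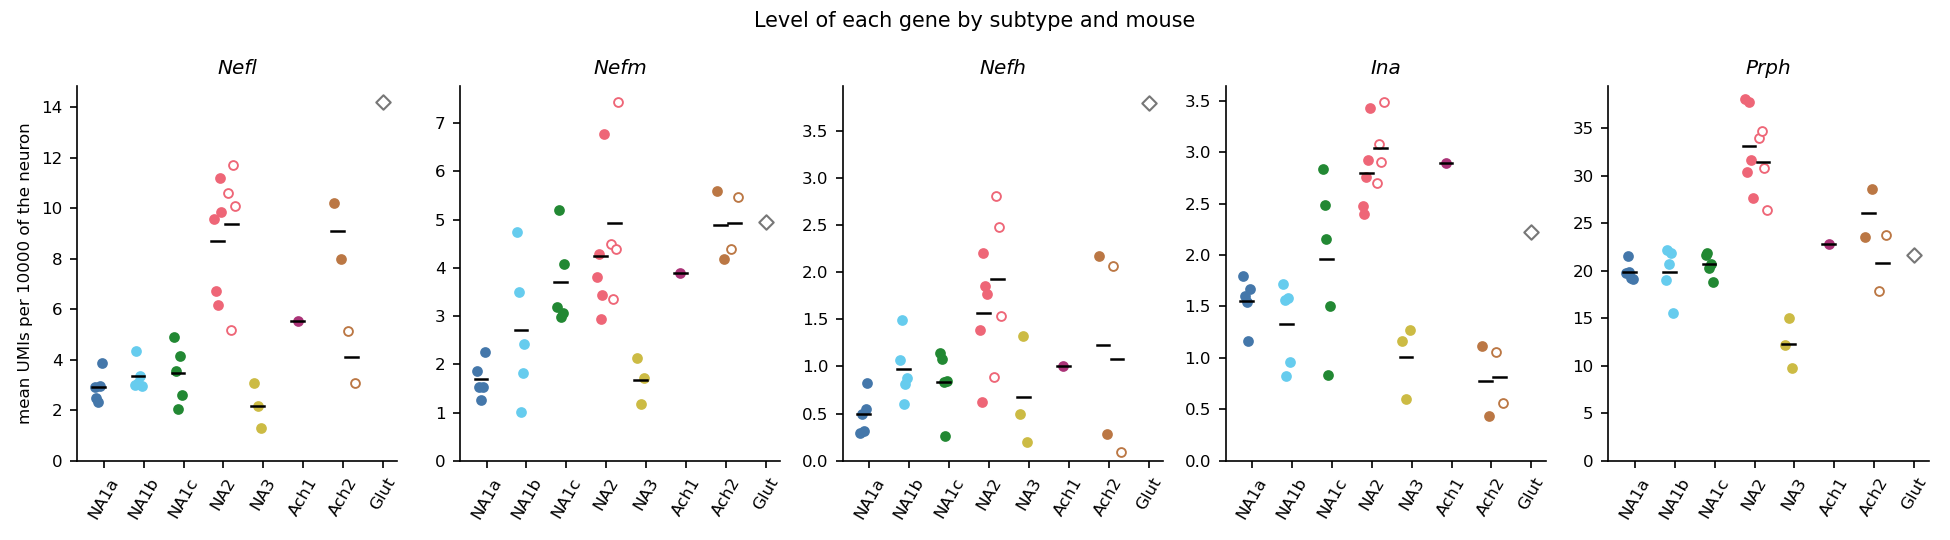
Mean UMIs per 10000 of each gene by subtype, with 1 filled point per mouse and the mean as a bar; open circles in NA2 and Ach2 leave out neurons with a shared barcode, and the open diamond is the value pooled over all 37 Glut neurons. NA2 lies highest of the 5 subtypes with 3 or more mice in every panel, with a mean of 8.70 for Nefl and 33.1 for Prph.

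The 3 small subtypes had fewer than 3 mice with 10 neurons and did not enter the main comparison. In Ach1, with 55 neurons of replicate 4, Nefl was at 5.53, Nefm at 3.89, Nefh at 1.01, Ina at 2.89 and Prph at 22.8 UMIs per 10000. In Ach2, replicates 1 and 4 held Nefl at 10.2 and 7.98, Nefm at 5.59 and 4.19 and Prph at 23.5 and 28.6. The 15 Ach2 neurons that carried them had a mean Nefl of 21.7, and the remaining Ach2 neurons of the 5 mice had 3.56, while Prph was at 40.1 and 22.0, respectively. Without them the Ach2 level of Nefl was 5.16 and 3.09 in replicates 1 and 4, with Nefm at 4.39 and 5.48. The 16 Ach2 neurons of the unmatched mice, none of which had a shared barcode, held Nefl at 11.9. Ina was low in Ach2, at 1.12 and 0.431 with and 1.06 and 0.563 without these barcodes, below every NA2 mouse either way. Pooled over 37 neurons, Glut had Nefl at 14.2 and Nefh at 3.79, with Nefm at 4.96, Ina at 2.22 and Prph at 21.6. The 17 Glut neurons of matched mice included 3 with a shared barcode, and the 20 Glut neurons of the unmatched mice held Nefl at 14.3 and Nefh at 3.63.

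Differences over the 5 subtypes with at least 3 mice were tested with limma on log2 of the mean plus 0.1, blocked by mouse and adjusted over 6185 genes by the Benjamini-Hochberg method. All 5 members passed the F test at an adjusted p below 0.05, where 67.9% of all genes tested did, so the count of 5 is not particular to them. Nefl had an adjusted p of 1.77e-08, Prph of 6.90e-07, Nefm of 4.71e-06, Ina of 0.000716 and Nefh of 0.00901. By p, Nefl ranked 506 and Nefh 3412 among the 6185 genes. Without the shared barcodes all 5 again passed, with adjusted p from 5.77e-08 for Nefl to 0.00250 for Nefh. With NA1a, NA1b and NA1c alone in the fit, Nefm was the 1 member that passed, at an adjusted p of 0.00130. Nefh failed when replicate 3 was left out, at an adjusted p of 0.0625.

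All 5 members were higher in NA2 than in NA1a, where 16.6% of all genes were called higher in NA2. The log2 difference was 1.53 ± 0.216 (SE, n = 5 mice) for Nefl, 1.25 ± 0.229 for Nefm, 1.46 ± 0.380 for Nefh, 0.81 ± 0.257 for Ina and 0.72 ± 0.155 for Prph, with adjusted p from 2.59e-07 for Nefl to 0.00872 for Ina by limma. Each of these differences had the same sign in 5 of 5 mice. The exact two-sided sign-flip test over 5 mice gave p = 0.0625 for each, the smallest value it can give, so it cannot pass 0.05. The median gene moved the other way, by -0.23 on the log2 scale, so relative to it the 5 differences are larger by that amount. The median mitochondrial share of a neuron, a sign of RNA quality, was taken over all neurons of a subtype, with those of the unmatched mice. This share moved with the comparison, at 6.25% in NA2 and 1.69% in NA1a, against 2.76% in NA1b, 3.05% in NA1c and 6.60% in NA3. Its part in the differences was not tested. Leaving out the shared barcodes kept all 5 calls. The log2 differences were then 1.67 for Nefl, 1.55 for Nefm, 1.79 for Nefh, 0.99 for Ina and 0.67 for Prph. In the fit at a minimum of 5 neurons the call of Ina was lost, with an adjusted p of 0.190 by limma.

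Against NA1b, 4 of the 5 members were called higher in NA2 (21.5% of all genes), and against NA1c also 4 of 5 (23.4% of all genes). Nefl was higher than in NA1b by 1.33 ± 0.216 and than in NA1c by 1.33 ± 0.216 on the log2 scale (SE, n = 5 mice), with adjusted p of 2.37e-06 and 1.83e-06 by limma. Prph was higher by 0.73 ± 0.155 and 0.67 ± 0.155. The member that was not called differed. Nefh missed against NA1b, with a log2 difference of 0.59 ± 0.380, and Nefm missed against NA1c, with 0.17 ± 0.229 and an adjusted p of 0.539. The calls of Nefh and Ina against NA1c were close to the threshold, at adjusted p of 0.0497 and 0.0460, and each was lost when replicate 3, 4 or 5 was left out. That of Nefm against NA1b, with a log2 difference of 0.75 ± 0.229, was lost without replicate 3 or without replicate 5. At a minimum of 5 neurons Ina was not called against NA1b or NA1c, at adjusted p of 0.0661 and 0.310 by limma. Nefh was not called against NA1c there, at an adjusted p of 0.163. Without the shared barcodes the same 4 members were called against each, Nefl by 1.47 ± 0.234 against NA1b and 1.48 ± 0.234 against NA1c, and both misses grew, Nefh against NA1b to 0.92 ± 0.404 (adjusted p = 0.0570 by limma) and Nefm against NA1c to 0.46 ± 0.248 (adjusted p = 0.113).

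**Figure D2:**
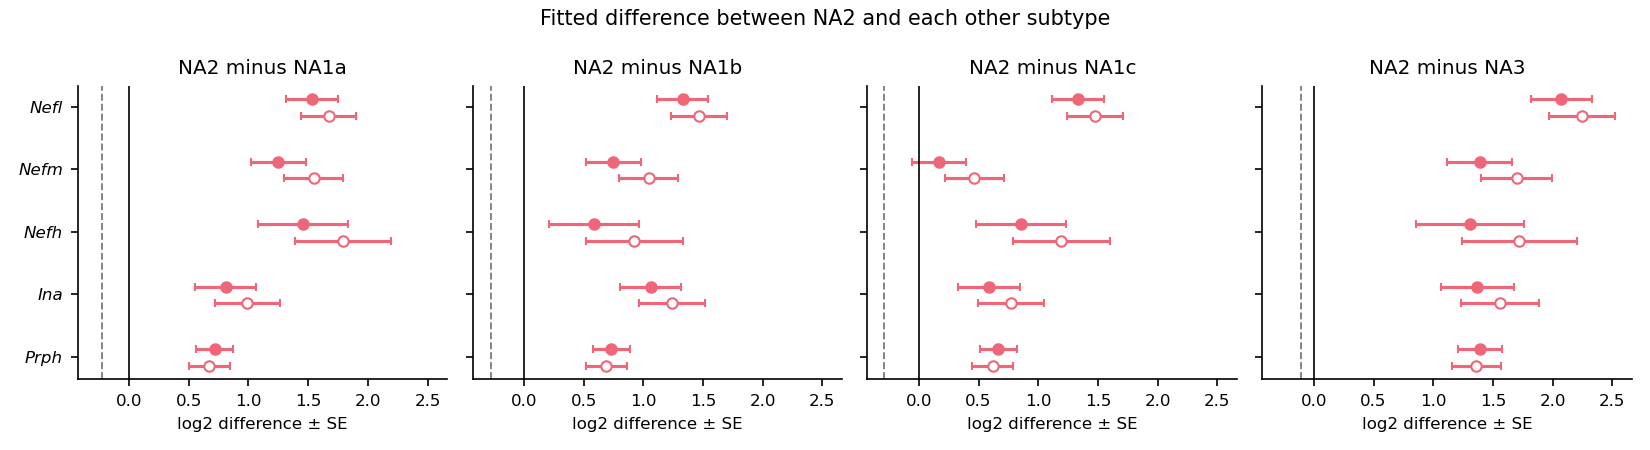
Fitted log2 difference of NA2 minus each other subtype for the 5 genes, with error bars of 1 SE; filled points use all neurons, open points leave out neurons with a shared barcode, and the dashed line is the median of all genes tested. All points lie above 0, from 0.17 for Nefm against NA1c to 2.25 for Nefl against NA3.

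Within the NA1 group few genes differed at all, since 4.14% of genes were called for NA1b against NA1a, 5.68% for NA1c against NA1a and 1.54% for NA1c against NA1b. Among the members, Nefm was called between NA1a and NA1c, and no other of the 15 comparisons passed. It was higher in NA1c by 1.08 ± 0.229 on the log2 scale (SE, n = 5 mice; adjusted p = 0.00288 by limma), in 5 of 5 mice. NA1a and NA1c differ in depth, with median UMIs of 8181.5 and 2778.5 per neuron in the 5 mice. When each neuron was thinned to 2000 UMIs the log2 difference of Nefm was 1.00, with an adjusted p of 0.0634. In the fit at a minimum of 5 neurons it stayed at 1.08 but was not called, with an adjusted p of 0.0731 by limma. Nefh was lower in NA1a than in NA1b in 5 of 5 mice, by 0.87 ± 0.380 (SE), but with an adjusted p of 0.225. For Prph the log2 differences within the NA1 group were 0.07 or less, with an SE of 0.155.

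NA3 was lower than NA2 for all 5 members (17.3% of genes were called higher in NA2), by 2.07 ± 0.257 for Nefl to 1.31 ± 0.452 for Nefh on the log2 scale (SE, n = 3 mice of NA3), and for Nefh the call was lost without replicate 3 or without replicate 5. Against the NA1 subtypes, Prph was lower in NA3 in all 3 comparisons, by 0.67 ± 0.184 against NA1a, 0.66 ± 0.184 against NA1b and 0.73 ± 0.184 against NA1c, with adjusted p of 0.00300 to 0.00766 by limma. It was the 1 member called against NA1a, where 11.8% of genes were higher in NA1a. Nefl was also called against NA1b, where 13.6% of genes were higher in NA1b, and Nefl and Nefm were called against NA1c, where 15.7% were higher in NA1c. These differences move with the satellite glia markers, which summed to 191 to 349 UMIs per 10000 in NA3. The median gene was lower in NA3 too, by 0.25, 0.27 and 0.26 on the log2 scale against NA1a, NA1b and NA1c. With each profile centred on its median gene, both calls of Nefl were lost, at adjusted p of 0.0899 and 0.0967 by limma. Those of Prph were kept. With neurons thinned to 2000 UMIs the 3 differences of Prph were 0.45 to 0.56 and none passed, with adjusted p of 0.0687 to 0.179, and the differences of Nefl were 0.10 and 0.28. Leaving out replicate 5, 1 of the 3 mice of NA3, ended the calls of Prph against NA1a and NA1b and both calls of Nefl. Leaving out replicate 4 ended both calls of Nefl as well, that against NA1b was also lost without replicate 3, and that against NA1c without replicate 1.

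Ach2 entered a fit at a minimum of 5 neurons, with 5 mice, and a fit at the minimum of 10 without the shared barcodes, with 2 mice. In the first, 3 members were called higher in Ach2 than in NA1a (16.7% of genes were called either way), Nefl by 1.70 ± 0.250, Nefm by 1.64 ± 0.304 and Prph by 0.53 ± 0.164 on the log2 scale (SE), with adjusted p from 3.45e-06 to 0.0228 by limma. In the second fit (4.56% of genes called) Nefm was still higher, by 1.54 ± 0.328 (adjusted p = 0.00201), while Nefl at 0.29 ± 0.313 and Prph at 0.01 ± 0.231 were not called. The second fit differs from the first in its mice as well as in the barcodes. With all neurons of the same 2 mice, Nefl was called, at 1.44 ± 0.298 (adjusted p = 0.00116 by limma). Prph, at 0.32 ± 0.215, was already not called there (adjusted p = 0.473). Against NA2, Ina was lower in Ach2 in both fits, by 1.99 ± 0.470 with 28.6% of genes called and by 1.83 ± 0.372 with 34.5% called. Nefl was at 0.16 ± 0.250 above NA2 in the first fit, a difference that was not called, and lower than in NA2 by 1.38 ± 0.320 in the second (adjusted p = 0.000838). Nefh and Prph were also called lower in Ach2 than in NA2 in the second fit, with adjusted p of 0.0465 and 0.0253. The second fit rests on 2 mice of Ach2, so that these values depend on few neurons.

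The share of neurons with at least 1 UMI depended on depth. With all UMIs, Nefl was found in 84.3% ± 9.13 of NA2, 77.4% ± 2.34 of NA1a, 66.2% ± 4.58 of NA1b and 58.8% ± 10.3 of NA1c neurons (SD over 5 mice). After thinning each neuron to 2000 UMIs, the shares were 74.5% ± 11.3 in NA2 (n = 4 mice) and 37.5% ± 8.12, 41.5% ± 13.4 and 42.7% ± 11.6 in NA1a, NA1b and NA1c (n = 5 mice each). NA1a, the deepest subtype, thus dropped from second place to the lowest of these 4. Nefh was found in 38.6% ± 13.5 of NA2 and 28.2% ± 9.18 of NA1a neurons before thinning, and in 32.9% ± 4.86 and 7.63% ± 3.15 after it. With all UMIs, Prph was found on average in 95.1% of neurons in NA3 and in at least 99.5% in each of the other 4 subtypes. With all UMIs but no shared barcodes, Nefl was found in 83.4% ± 11.4 and Nefh in 46.4% ± 18.3 of NA2 neurons (n = 4 mice). Thinning left out shallower neurons, and kept 101 of 150 NA2 and 176 of 182 NA1a neurons of the 5 mice.

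**Figure D3:**
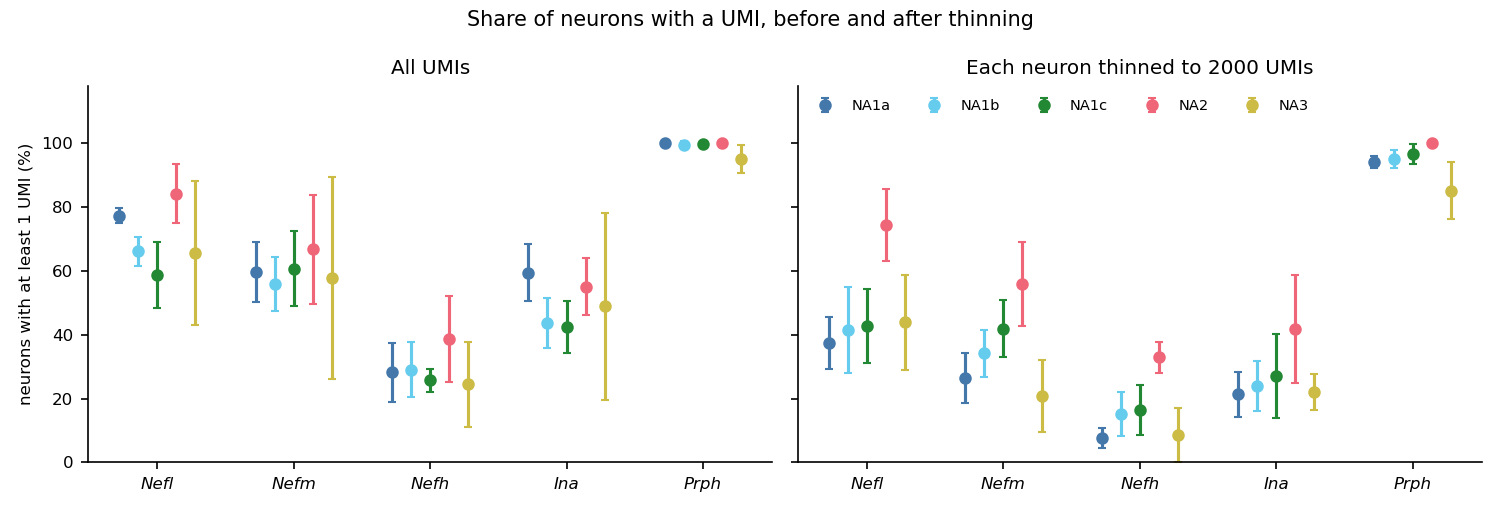
Percent of neurons with at least 1 UMI of each gene in the 5 subtypes with 3 or more mice, as the mean over mice with SD bars, for all UMIs on the left and after thinning each neuron to 2000 UMIs on the right. For Nefl the subtypes lie between 58.8% and 84.3% on the left, and on the right NA2 at 74.5% stands above the other 4, which lie between 37.5% and 43.9%.

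The complete triplet of Nefl, Nefm and Nefh was seen in a minority of neurons. At least 1 UMI of each was present in 29.1% ± 17.3 of NA2, 20.3% ± 8.88 of NA1a, 17.4% ± 8.23 of NA1b, 13.3% ± 5.56 of NA1c (SD, n = 5 mice each) and 16.3% ± 19.9 of NA3 neurons (SD, n = 3). After thinning it was present in 18.4% ± 6.66 of NA2 neurons (n = 4 mice) and in 1.01% ± 1.39 of NA1a neurons. Without the shared barcodes and with all UMIs the share in NA2 was 35.0% ± 21.1 (n = 4 mice). At this depth a missing UMI does not show that the gene was silent in that neuron.

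Spread among neurons of 1 subtype and mouse was measured as the squared coefficient of variation of the level after the Poisson counting part was removed, so that a value of 0 would mean no spread beyond counting. The measure runs low for sparse genes in some of these groups. Its median over the genes tested was 0.0147 in NA1a, 0.0107 in NA1b, -0.141 in NA1c, -0.166 in NA3 and -0.454 in NA2. No order among subtypes is therefore read from it. Prph was at 0.0166 ± 0.0313 in NA1a, 0.0693 ± 0.0458 in NA1b and -0.00345 ± 0.122 in NA1c (SD, n = 5 mice each). In NA3 Prph was at 0.208 ± 0.0662, with all 3 mice between 0.134 and 0.261, and at 0.207 ± 0.0633 after thinning to 2000 UMIs. Nefl was at 0.551 ± 0.302 in NA1a, with every mouse between 0.213 and 0.841, and at -0.178 ± 0.340 in NA2, or -0.0945 ± 0.307 in the 4 mice left without the shared barcodes. After thinning to 2000 UMIs the values were 0.212 ± 0.809 in NA1a and 0.203 ± 0.279 in NA2.

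The composition of the set was compared as the log2 ratio of each member to Nefl, over NA1a, NA1b, NA1c and NA2. The ratio of Prph to Nefl was lower in NA2, at 1.94 ± 0.47, than in NA1a, at 2.75 ± 0.33 (SD, n = 5). This drop of 0.81 ± 0.25 was seen in 5 of 5 mice, and the drops against NA1b (0.60 ± 0.46) and NA1c (0.67 ± 0.44) also in 5 of 5. The ratio of Nefm to Nefl was 0.13 ± 0.59 in NA1c and -1.04 ± 0.47 in NA2, a difference of 1.17 ± 0.31 in 5 of 5 mice. None of the 24 comparisons passed, at p = 0.0625 by the exact two-sided sign-flip test for the 4 named here and adjusted p = 0.214. With 5 mice this test cannot pass 0.05 even unadjusted, and 7 of 24 comparisons reached its smallest value. With the shared barcodes left out, and 4 mice of NA2, the drop of Prph to Nefl was 0.88 ± 0.40 against NA1a in 4 of 4 mice, 0.82 ± 0.44 against NA1c in 4 of 4 and 0.79 ± 0.56 against NA1b in 3 of 4.

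Correlation among the members from neuron to neuron within a mouse and subtype was weak. Over the 26 groups of mouse and subtype, the mean Pearson's r of the 10 pairs ran from 0.0384 for Ina and Prph to 0.167 for Nefl and Nefm, the neighbours on chromosome 14. Nefl and Nefm correlated positively in 21 of the 26 groups, with a range of -0.443 to 0.637. In NA2 their mean r was 0.308 ± 0.208 (SD over 5 mice), positive in 5 of 5 mice, and 0.427 ± 0.259 in the 4 mice left without the shared barcodes, while in NA1a, NA1b and NA1c it was 0.148, 0.205 and 0.173, each positive in 4 of 5. After thinning to 2000 UMIs, NA1a was at -0.0626 and positive in 1 of 5 mice, and NA2 at 0.197 lay below NA1c at 0.218 and NA3 at 0.277. The points of a group share a library and a range of depth, and most neurons held few UMIs of these genes, so that values of this size are a description only. Removing depth by partial correlation left Nefl and Nefm at 0.163, thinning to 2000 UMIs at 0.132 and leaving out the shared barcodes at 0.211. Thinning took Nefl and Ina from 0.0711 to -0.00360 and Nefm and Ina from 0.142 to 0.0327. Among the neurons with a UMI of both genes, Nefl and Nefm correlated at 0.413 over 21 groups, but there the value of a single UMI rises for both genes as the depth of the neuron falls.

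**Figure D4:**
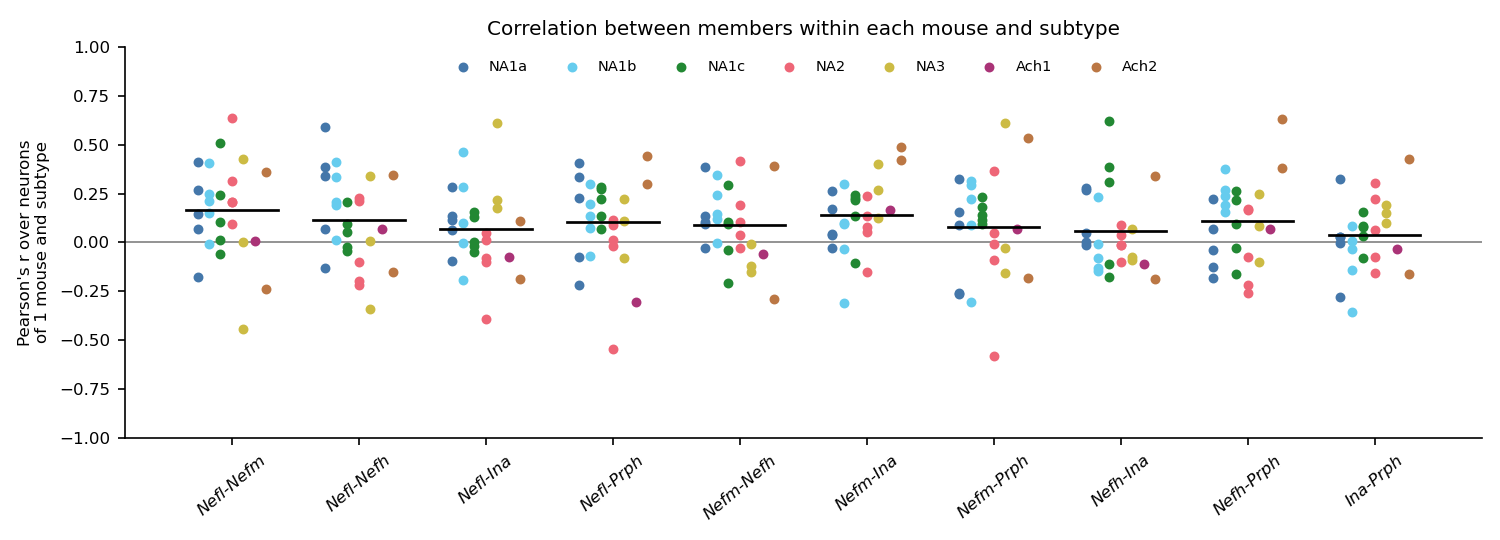
Pearson's r of each pair of members over the neurons of 1 mouse and subtype, with 1 point per group (26 groups in 7 subtypes, coloured by subtype) and the mean as a bar. The means lie between 0.0384 and 0.167, and the points of every pair fall on both sides of 0.

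Other genes stood as close to each member as the members did to each other. Among the 6184 genes ranked for Nefl within groups, Nefm came 17th in order of mean r, and the first 3 were Hspa8, a constitutive heat shock chaperone (0.220), Arpc1a, a subunit of the actin-nucleating Arp2/3 complex (0.218), and Tubb3, a neuronal beta-tubulin (0.202). For Nefm they were Eef2, a translation elongation factor (0.224), Vcp, an ATPase of protein turnover (0.216), and Eif4b, a translation initiation factor (0.212). For Prph they were Eef2 (0.228), Tubb5, a beta-tubulin (0.218), and Pcsk1n, a neuroendocrine peptide precursor (0.217). Nefh was nearest to Bop1 (0.205), Acot7 (0.203) and Prkar1b (0.200), and Ina to Irgq (0.223), Vat1l (0.211) and Gnb3 (0.206). The median r of a member with all genes was between 0.00175 and 0.0291. These were the highest of 6184 values for each member and change with the neurons used. When the shared barcodes were left out, Nefm came to rank 4 for Nefl, and the 3 genes nearest to Nefh were Ampd2, Nub1 and Gab1 instead.

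Across the 26 profiles of mouse and subtype the correlations were larger. Log2 levels of Nefl and Prph had a Pearson's r of 0.801, Nefl and Nefm of 0.660 and Nefl and Ina of 0.325. Over the neurons without a shared barcode these were 0.746, 0.617 and 0.565 over 25 profiles. Profiles of a mouse share its library, and profiles of a subtype share the clustering, so no p is given. Over single neurons pooled across the subtypes of a mouse, the mean r was 0.251 for Nefl and Prph and 0.237 for Nefl and Nefm (5 mice).

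Neurons with viral transcripts were few. GFP from the heart was found in 6 neurons, of which 6 had Prph, 4 Nefl, 4 Nefm, 3 Ina and 2 Nefh. Of the 20 neurons with tdTomato from the paws, 19 had Prph, 11 Nefl, 11 Nefm, 7 Ina and 3 Nefh. The median level of Prph was 20.4 in the first and 16.7 UMIs per 10000 in the second, and the ranges of 7.00 to 34.6 and 0 to 37.3 overlapped.

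Genes that build, link, modify, turn over or carry neurofilaments were examined as 6 classes of 45 genes, of which 38 were tested and 30 passed the F test, against 67.9% of all genes. Between NA2 and NA1a, 14 of the 38 were called higher in NA2 (16.6% of all genes) and 11 lower (32.0% of all genes), which became 10 and 7 without the shared barcodes. The axonal tubulins, the building blocks of microtubules, moved with the members between NA1a and NA2, since 7 of 7 were higher in NA2. Tubb3 rose from 15.0 ± 2.51 to 33.5 ± 3.51 UMIs per 10000 (SD, n = 5; log2 difference 1.16 ± 0.173 SE), Tuba1a from 10.7 ± 1.37 to 39.6 ± 4.40 (1.89 ± 0.177) and Tubb4b from 2.13 ± 0.687 to 8.16 ± 1.08 (1.93 ± 0.207). Without those barcodes 7 of 7 were again higher, with a median log2 difference of 1.38 for the class. With all neurons 6 of 7 were higher in NA2 than in NA1b (21.5% of all genes) and 5 of 7 than in NA1c (23.4% of all genes). Between NA3 and NA1a, 2 of 7 were higher in NA3 and 2 lower, where 19.1% of all genes were called either way.

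The linkers and microtubule-associated proteins split. Of 8 tested, 2 were higher in NA2 than in NA1a (16.6% of all genes) and 5 lower (32.0% of all genes). These became 2 and 2 without the shared barcodes. The giant linkers Macf1 and Dst, which tie filament systems together, were at 0.860 ± 0.244 and 3.49 ± 1.51 in NA2 against 3.91 ± 0.216 and 12.0 ± 2.33 in NA1a (SD, n = 5). Mapt, the tau gene, was at 4.37 ± 1.02 in NA2 and 4.89 ± 0.567 in NA1a, a difference that did not pass (adjusted p = 0.447 by limma), and at 9.20 ± 2.67 in NA1b. In the turnover and mRNA binding class, 2 of 7 genes were higher (16.6% of all genes) and 5 lower (32.0% of all genes). These became 1 and 4 without those barcodes. Uchl1, a neuronal deubiquitinase, was higher in NA2 at 40.7 ± 4.88 against 22.9 ± 3.37 (SD, n = 5).

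Among the transport motors, 1 of 6 was higher in NA2 than in NA1a (Kif5b, a kinesin heavy chain, at 3.17 ± 0.373 against 2.01 ± 0.337) and 1 lower (Dync1h1, the dynein heavy chain, at 2.62 ± 1.21 against 4.97 ± 0.890; SD, n = 5). Over all genes 16.6% were called higher and 32.0% lower, so these counts are not particular to the motors. Kif5c was at 2.88 ± 0.622 against 2.61 ± 0.463. Leaving out the shared barcodes ended the call of Kif5b (adjusted p = 0.122 by limma) and took the log2 difference of Dync1h1 from -1.02 to -0.68. Of the 8 kinase and phosphatase genes of the neurofilament tails, 2 were higher in NA2 (16.6% of all genes). They were Ppp2ca of protein phosphatase 2A (3.44 ± 1.13 against 1.68 ± 0.233) and Gsk3b (4.44 ± 1.26 against 2.94 ± 0.434). Neither call was kept without the shared barcodes. The log2 difference then went from 0.94 to 0.44 for Ppp2ca (adjusted p = 0.171 by limma) and from 0.55 to 0.52 for Gsk3b (adjusted p = 0.0790). Mapk3 was at 5.99 ± 1.35 in NA2 and 5.04 ± 0.918 in NA1a, a difference that did not pass. Of the 9 other intermediate filament genes, 2 passed the filter on low levels. Vim, which encodes vimentin, was at 23.6 ± 10.4 in NA3 (SD, n = 3) against 1.12 ± 0.236 in NA1a (SD, n = 5), and is also a gene of glia and fibroblasts. Lmna of the nuclear lamina was at 1.42 ± 0.618 in NA2 and 1.54 ± 0.0843 in NA1a and did not pass the F test.

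**Figure D5:**
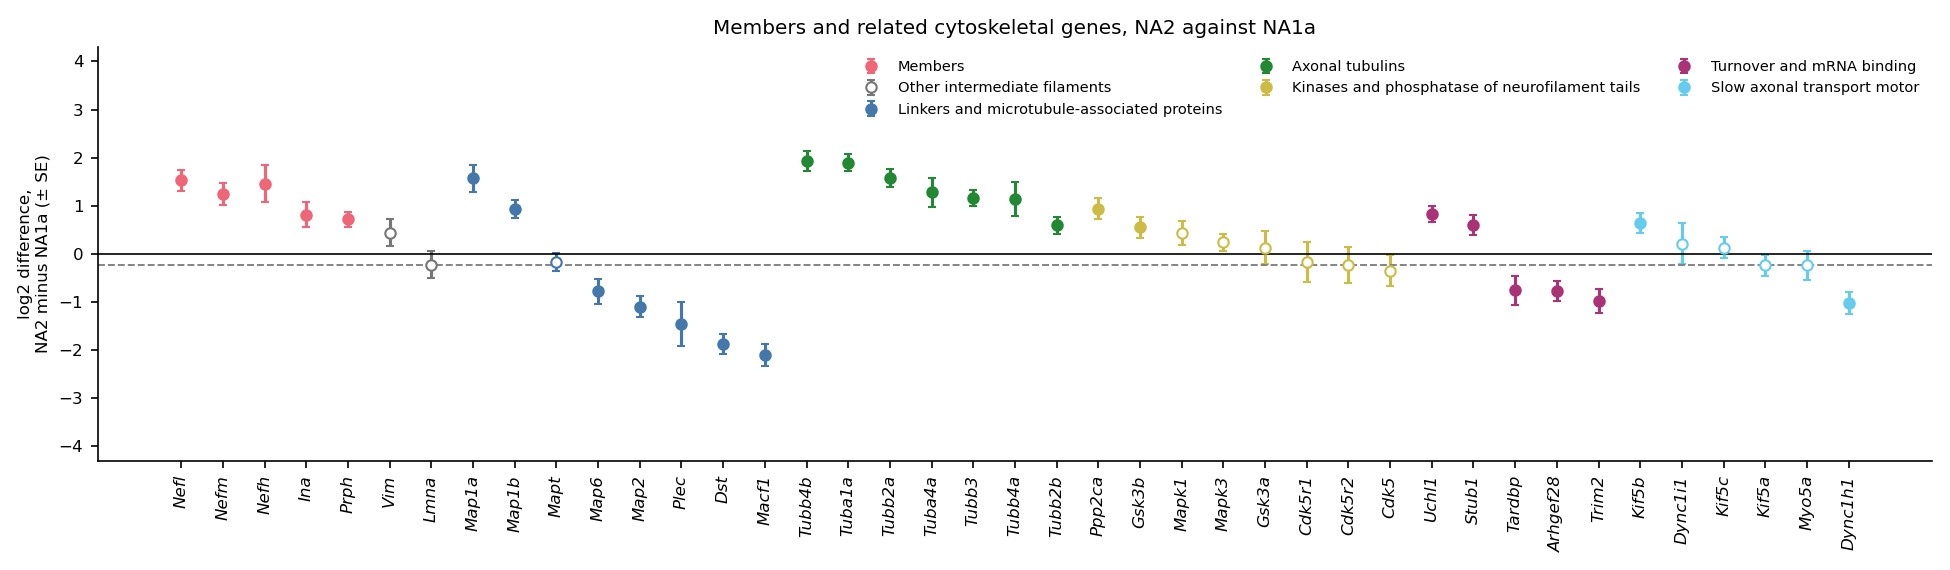
Fitted log2 difference of NA2 minus NA1a, with error bars of 1 SE, for the 5 members and 36 of the related genes tested, coloured by class; filled points have an adjusted p below 0.05 and the dashed line is the median of all genes tested, at -0.23. All 5 members and all 7 tubulins lie above 0, while Macf1 lies lowest at -2.10.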

How the data were processed

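The neurons of 8 mice had been processed by the authors with Cell Ranger (version 2.1.1 per the labels; GRCm38 with GFP) and Seurat, after limits on the genes, UMIs and mitochondrial RNA of a cell. No doublet removal is named. The authors deposited natural log values, taken of UMIs per 10000 with 1 added. Whole UMIs were recovered from them, with 100% of nonzero values within 0.01 of a whole number. Means per mouse and subtype were computed for at least 10 neurons. Genes were kept if their mean reached 0.5 in a number of profiles no smaller than that of the smallest subtype, and were fitted on log2 (mean + 0.1) with limma 3.58.1 in R 4.3.3, with an intensity trend and the mouse as a block, and the fold changes understate those of low genes. A gene was called at an adjusted p (Benjamini-Hochberg) under 0.05. Profiles were paired by mouse because they come from the same animal. The mean correlation of their residuals was 0.0712, against -0.0672 between mice. Exact two-sided sign-flip tests, squared coefficients of variation and correlations were computed in Python 3.11.15 and tested on simulated data. The genes named are the 5 members, the 3 genes nearest to each by mean correlation within groups, and in each class of related genes up to 3 with the smallest p, of which some are not reported here. Members, lists and tests were chosen with earlier results of these data known. Mice were the replicates, 3 mouse names with 301 neurons could not be matched to a sample, and the 5 matched mice are of batch 2, so batches were not compared. The alternatives covered the pseudocount, filter, block, minimum of neurons, subtypes and mice in the fit, scaling, weights, thinning to 2000 UMIs and a window of 2000 to 6000 UMIs. Leaving out neurons with shared barcodes and the fits with 2 mice of Ach2 were added after seeing the data.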

Additional observations from a re-analysis of the deposited data

Results flagged for a closer look

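Among the 20 sets of mice for the 5 genes in NA1a, NA1b, NA1c and NA2, 1 held a mouse apart from the others by Dixon's criterion. Nefl in NA1b was at 4.34 UMIs per 10000 in replicate 2, and the nearest mouse was at 3.36, a gap of 0.713 of the whole range against a critical value of 0.71. Chance alone marks about 1 in 20 such sets.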

How the results depend on the processing

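None of the 25 differences called in the main fit changed sign under any alternative run. Of 50 comparisons between pairs of subtypes, 25 were called, 17 to 27 with 1 mouse left out, and 23 without the replicate block, 22 of them shared. Fewer comparisons were fitted where a setting removed subtypes, with 14 calls of 30 at a minimum of 20 neurons, 14 of 30 without NA3, 7 of 15 with neurons of 2000 to 6000 UMIs and 2 of 15 with NA1a, NA1b and NA1c only. All 5 members passed the F test under most settings, 4 to 5 with 1 mouse left out, and 1 with NA1a, NA1b and NA1c only. Nefh also missed without a filter on low genes (adjusted p = 0.0673) and Nefm with neurons of 2000 to 6000 UMIs (adjusted p = 0.501), where NA1a and NA3 are not fitted. The share of neurons with Nefl was 6.88 percentage points higher in NA2 than in NA1a with all UMIs and 37.0 after thinning to 2000 UMIs. Mean correlation over the 10 pairs was 0.0981, and 0.0790 to 0.282 under the alternatives. The ratio tests cannot pass with 5 mice, so they say nothing of stability. In the fits of Ach2 with 2 mice, its Nefl difference from NA2 turned from 0.16 to -0.09 with all neurons and -1.38 without the shared barcodes, and its Nefm difference from 0.39 to -0.01. Of the 25 calls, 6 were lost after thinning to 2000 UMIs and 5 at a minimum of 5 neurons.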
